A study of Mus musculus with 32 samples.

Results

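The genes described here are 37 genes of glycolysis and of the hypoxia response, chosen by gene symbol: every row of the deposited gene tables whose symbol is one of the 37 was taken. The list was chosen with earlier results of these data known, so the members' shares set beside those of all genes below do not come from a blind choice. They were found in 38 of 55573 gene rows, because Aldoa is listed under a pair of identifiers, and the entry with the larger count stands for it below. RNA was sequenced from mouse embryonic stem cells (ESC; the strain is 129S5/SvEvBrd) and from neural cells derived from them over 6 days of direct neural induction in RHB-A medium; the ESC were kept in serum medium with LIF. Every line carries a tag named MD at Smarce1, the gene of BAF57, which is part of the SWI/SNF chromatin remodellers. The control lines carry the same tag with the substitution R42A, so both genotypes are tagged and no untagged line enters any comparison. MD is read here as a mitotic degradation domain that removes the tagged protein during mitosis and R42A as the change that disables it, which is general knowledge and is not spelled out in the sample labels. The groups are R42A ESC (lines A04, A10, A01 and A02), MD ESC (lines 09, 30, 45 and 47), R42A neural cells (A04 and A10) and MD neural cells (09 and 30). The labels give no oxygen level for any culture.

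Glycolysis splits glucose into pyruvate, which is either reduced to lactate or oxidised in mitochondria. The same genes are a classical output of the hypoxia-inducible factors (HIF), whose alpha subunit is hydroxylated by the EGLN prolyl hydroxylases and destroyed when oxygen is plentiful, and which otherwise enters the nucleus and binds the short motifs ACGTG or GCGTG. Pluripotent stem cells are known for high glycolysis, and isoforms of hexokinase, lactate dehydrogenase and the glucose carriers change with differentiation. HIF also raises genes that slow pyruvate entry into mitochondria (Pdk1), remove mitochondria (Bnip3, Bnip3l), recruit vessels (Vegfa) and restrain HIF itself (Egln3).

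Libraries held between 38699952 and 96424443 counts. The 32 libraries (12 in each ESC group, 4 in each neural group) were summed into 12 line sums, 3 libraries each for ESC and 2 for neural cells, because numbered libraries of a line share that line. Whether the lines are independent clones is not stated, and p-values measure the spread between these lines. ESC libraries came in a first series (A04, A10, 09, 30) and a second series (A01, A02, 45, 47) by their library numbers, and the neural libraries in a further one. Effects of stage and of series therefore cannot be told apart. Smarce1 RNA, which does not report the tag's effect on the protein, was between 95.2 and 129 CPM (counts scaled to library size) in R42A ESC and between 112 and 125 CPM in MD ESC (log2 difference 0.09, SE 0.09, adjusted p = 0.438 in edgeR's quasi-likelihood test). In neural cells it was between 229.7 and 233 CPM in R42A and between 289.7 and 299 CPM in MD (0.34, SE 0.09, adjusted p = 0.0293). Of the markers fixed for each label, the summed level of 10 pluripotency genes was between 5136 and 7362 CPM in the ESC groups and between 259 and 345 CPM in the neural groups, and that of 10 neural progenitor genes was between 174 and 495 CPM in ESC and between 2429 and 2667 CPM in neural cells. Levels below are CPM of a line sum after TMM scaling, listed in the order A04, A10, A01, A02 for R42A ESC, 09, 30, 45, 47 for MD ESC, A04, A10 for R42A neural cells and 09, 30 for MD neural cells. Differences are log2 changes from edgeR's quasi-likelihood test with Benjamini-Hochberg adjustment over all genes tested, called where the adjusted p is under 0.05. In these bulk libraries, fewer cells of a type and less RNA per cell cannot be told apart.

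The promoters of 6 genes with called differences below are shown as examples, and these are not the 6 with the largest changes. Aldoc, Ddit4 and Vegfa, for instance, had larger changes in neural cells than Ldha and are not shown. Each is 300 bases, 250 before and 50 after the annotated start, from RefSeq on GRCm38.p6 and written 5′ to 3′ on the gene's strand. Capitals mark ACGTG and GCGTG on either strand, so that a match on the other strand reads CACGT or CACGC. Pdk1 is at chr2:71872974-71873273 (plus strand), Bnip3 at chr7:138909457-138909756 (minus), Ankrd37 at chr8:45999801-46000100 (minus), Pfkp at chr13:6648722-6649021 (minus), Slc16a3 at chr11:120948817-120949116 (plus) and Ldha at chr7:46845554-46845853 (plus).
Pdk1: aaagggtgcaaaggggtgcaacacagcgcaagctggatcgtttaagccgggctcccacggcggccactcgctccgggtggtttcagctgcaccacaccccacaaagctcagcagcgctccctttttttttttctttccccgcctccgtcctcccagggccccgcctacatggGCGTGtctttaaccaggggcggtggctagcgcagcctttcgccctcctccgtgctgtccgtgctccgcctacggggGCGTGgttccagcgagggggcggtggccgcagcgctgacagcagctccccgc
Bnip3: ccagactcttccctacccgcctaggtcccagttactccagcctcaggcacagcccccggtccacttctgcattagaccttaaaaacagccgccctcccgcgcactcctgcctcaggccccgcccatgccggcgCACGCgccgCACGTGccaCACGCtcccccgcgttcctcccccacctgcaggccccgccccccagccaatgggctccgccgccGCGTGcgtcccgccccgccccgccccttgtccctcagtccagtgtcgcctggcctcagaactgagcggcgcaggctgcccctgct
Ankrd37: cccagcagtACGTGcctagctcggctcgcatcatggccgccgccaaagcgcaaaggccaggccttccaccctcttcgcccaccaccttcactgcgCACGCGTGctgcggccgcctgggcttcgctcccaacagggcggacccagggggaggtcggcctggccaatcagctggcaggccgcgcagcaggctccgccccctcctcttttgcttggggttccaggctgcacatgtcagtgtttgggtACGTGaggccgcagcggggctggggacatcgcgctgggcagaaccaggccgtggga
Pfkp: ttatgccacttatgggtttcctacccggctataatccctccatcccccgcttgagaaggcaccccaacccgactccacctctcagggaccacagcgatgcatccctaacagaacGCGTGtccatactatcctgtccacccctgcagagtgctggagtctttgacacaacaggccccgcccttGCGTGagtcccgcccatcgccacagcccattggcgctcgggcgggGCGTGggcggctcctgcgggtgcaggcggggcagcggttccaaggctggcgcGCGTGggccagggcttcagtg
Slc16a3: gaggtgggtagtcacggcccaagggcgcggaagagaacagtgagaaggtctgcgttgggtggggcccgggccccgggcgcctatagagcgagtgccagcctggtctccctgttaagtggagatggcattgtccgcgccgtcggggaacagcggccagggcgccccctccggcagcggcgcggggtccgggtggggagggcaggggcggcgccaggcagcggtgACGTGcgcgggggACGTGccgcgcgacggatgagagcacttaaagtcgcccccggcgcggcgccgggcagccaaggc
Ldha: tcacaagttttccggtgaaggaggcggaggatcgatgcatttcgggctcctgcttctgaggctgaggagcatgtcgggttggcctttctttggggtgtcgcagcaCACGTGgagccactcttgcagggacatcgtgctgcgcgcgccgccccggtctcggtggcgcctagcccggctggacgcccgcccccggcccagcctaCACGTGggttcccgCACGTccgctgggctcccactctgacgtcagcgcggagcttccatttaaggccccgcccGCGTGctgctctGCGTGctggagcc
Of the 37 genes, 34 had an entry (Slc2a3, Bnip3l and Ndrg1 had none), with 55 promoters. ACGTG stood in a promoter of 25 of the 34 genes (73.5%), against 21.8% of 27025 genes with a promoter entry, and GCGTG in 23 (67.6%), against 35.2%. Either motif was found in 31 (91.2%), against 46.7% of all genes. Counted by promoter, since genes differ in how many they have, ACGTG was in 29 of 55 (52.7%), against 19.6% of 32851, and GCGTG in 31 (56.4%), against 32.4%. Where ACGTG is matched on both strands 1 base apart the letters read CACGTG, the E-box bound by MYC, MAX and MXI1 proteins, as in Bnip3 and at a pair of places in Ldha. Slc16a3 held 2 ACGTG and no GCGTG, Pfkp 4 GCGTG and no ACGTG, and Pdk1 2 GCGTG in the printed promoter. These matches describe letters in the window and are not binding sites.

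In ESC, glycolysis and hypoxia genes were lower in MD than in R42A lines or did not pass the test, and no member passed as higher. Of the 37, 19 fell (51.4%) and 18 did not pass, against 19.4% of 21567 genes tested that fell, 17.1% that rose and 36.5% called in either direction. The members' median log2 change was -0.23, against -0.03 over all genes tested. No member was higher at an unadjusted p under 0.05 in edgeR (0), and none passed as higher in DESeq2 (0) or limma voom (0), but without A10 Gpi1 (0.14, adjusted p = 0.0236), Aldoc (0.78, adjusted p = 0.0008) and Slc16a3 (0.39, adjusted p = 0.0350) passed as higher, and in the second series alone Aldoc did (0.89, adjusted p = 0.00613). For 9 members all 4 MD lines lay below all 4 R42A lines (Slc2a3, Hk2, Pfkp, Eno2, Pdk1, Ankrd37, Egln1, Egln3 and Ndrg1), a pattern shown by 10.5% of all genes tested, with 10.8% the other way and 21.2% in either direction. The count of members that fell was 9 without the series term, 7 in the first series alone and 12 in the second alone.

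**Figure D1:**
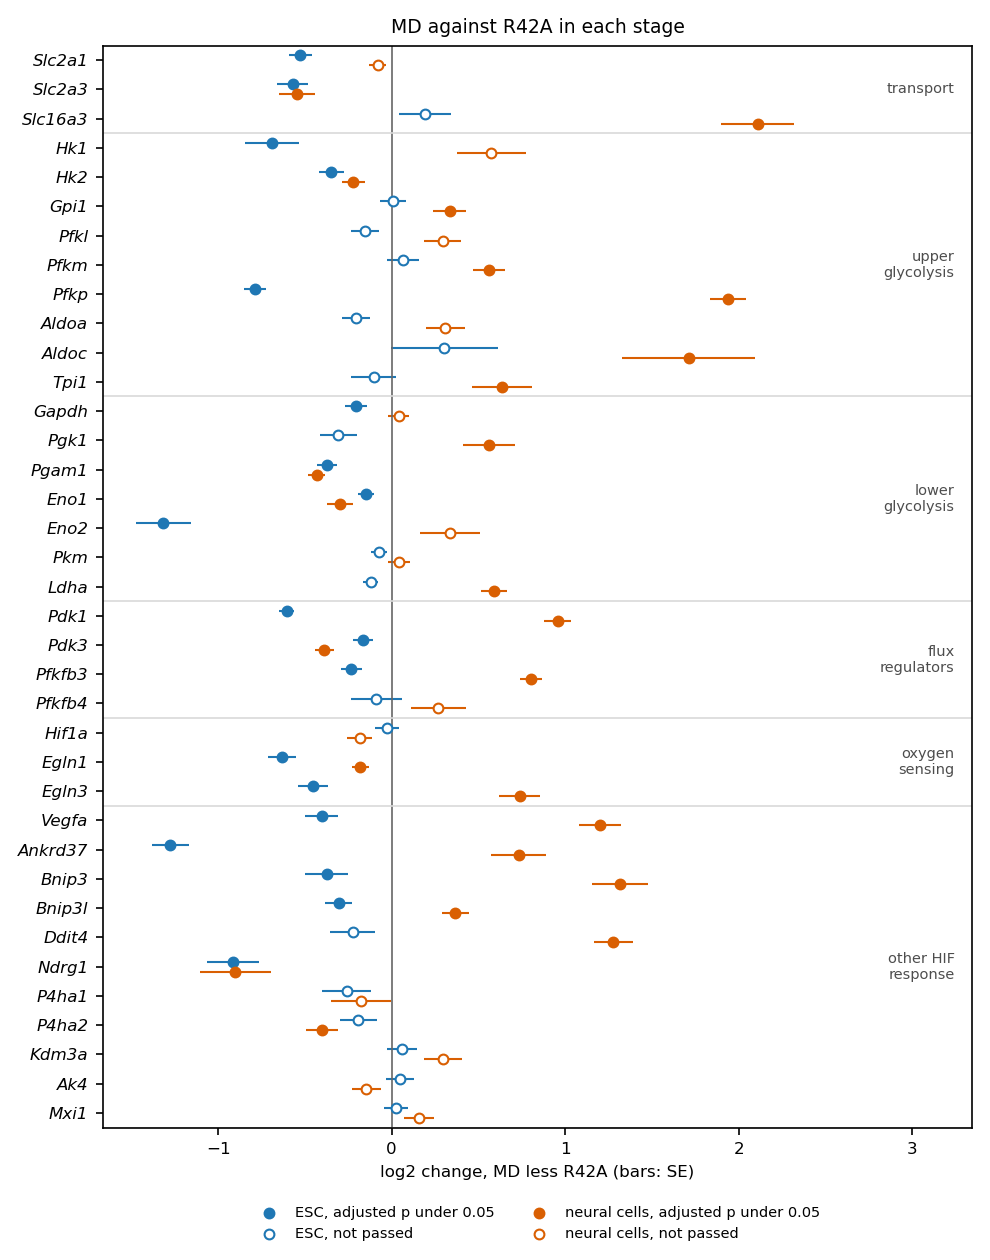
Log2 change of MD against R42A (horizontal axis) for each of the 37 genes, ordered by role, in ESC (blue) and in neural cells (orange). Bars are standard errors, and filled points have an adjusted p under 0.05. The 19 filled blue points all lie below 0, whereas 16 of the 24 filled orange points lie above 0.

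Among the transporters, both glucose carriers fell. Slc2a3 (GLUT3, the high-affinity carrier of early embryo and neurons) was at 1430.3, 1723, 1151 and 1454 CPM in R42A and 1019, 1030.0, 956 and 868 CPM in MD lines, which do not overlap (log2 -0.57, SE 0.09, adjusted p = 0.00146). Slc2a1 (GLUT1, the widespread basal carrier) was at 414, 399, 479 and 571 CPM in R42A and 275, 261, 364 and 404 CPM in MD lines. The groups overlapped only through MD line 47 and R42A line A10, while within each series both MD lines were lower (log2 -0.53, SE 0.07, adjusted p = 0.000469, but 0.0826 without the series term). Slc16a3 (MCT4, which exports lactate) did not pass (0.19, SE 0.15).

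Among enzymes from glucose to triose phosphate, 3 of 9 fell. Pfkp, the platelet-type phosphofructokinase, which catalyses the committing step, was at 505, 540.0, 459 and 418 CPM in R42A and 294, 271, 287 and 261 CPM in MD lines. That is 1.73-fold lower in MD (log2 -0.79, SE 0.06, adjusted p = 7.3e-05), with every MD line below every R42A line. The hexokinases, which trap glucose as its phosphate, fell as well: Hk2 by 0.35 (SE 0.07) and Hk1 by 0.69 (SE 0.16) on the log2 scale. In edgeR's test of the first and second series alone, Hk2 passed in neither (adjusted p = 0.0743 and 0.100). Hk1 passed in the second only (adjusted p = 0.0848 and 0.0180). Hk1 ranged from 43.5 to 72.2 CPM in R42A and from 28.3 to 54.4 CPM in MD lines. Gpi1, Pfkl, Pfkm, Aldoa, Aldoc and Tpi1 had log2 changes between -0.21 and 0.30 and did not pass.

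Of the 7 enzymes from glyceraldehyde phosphate to lactate, 4 fell. Eno2, the neuronal enolase, had the lowest log2 change of all members: 6.94, 9.56, 9.51 and 11.4 CPM in R42A against 3.05, 2.54, 5.44 and 4.56 CPM in MD lines (-1.32, SE 0.16, adjusted p = 0.00042). Its level was low throughout. Pgam1, the phosphoglycerate mutase, fell by 0.37 (SE 0.06), Gapdh by 0.21 (SE 0.06) and Eno1 by 0.15 (SE 0.05) on the log2 scale. The call for Gapdh was kept in 9 of 18 alternative analyses and that for Eno1 in 6 of 18. Both were also higher in the second series than in the first in every line: Gapdh lay between 1846 and 2076 CPM in the first and between 3064 and 3989.6 CPM in the second series. Pgk1 (-0.31, SE 0.11, adjusted p = 0.0512), Ldha (-0.12, SE 0.04, adjusted p = 0.0564) and Pkm (-0.07, SE 0.05) did not pass.

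Pdk1, the kinase that switches off pyruvate dehydrogenase, was at 256, 248, 249 and 234 CPM in R42A and 166, 158, 161 and 165 CPM in MD lines (log2 -0.61, SE 0.04, adjusted p = 4.61e-05). The lowest R42A line stood well above the highest MD line in both series. Its relative Pdk3 (-0.16, SE 0.06, adjusted p = 0.0487) and Pfkfb3, which makes a sugar phosphate that activates phosphofructokinase (-0.23, SE 0.06, adjusted p = 0.0172), fell by less, with calls kept in 4 and 11 of 18 alternatives. Pfkfb4 did not pass.

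In the oxygen-sensing group, Hif1a RNA gave no call (-0.03, SE 0.07), ranging from 124 to 165 CPM in R42A and from 119 to 156 CPM in MD lines. Both hydroxylases fell. Egln1 (PHD2, the main HIF hydroxylase) was at 37.6, 36.7, 38.9 and 38.9 CPM in R42A and 21.7, 21.5, 30.7 and 25.2 CPM in MD lines (log2 -0.63, SE 0.08). It lies on chromosome 8, and its call was lost with each chromosome scaled separately (-0.22, adjusted p = 0.129). Egln3 (PHD3, itself a HIF target) was at 35.9, 40.5, 31.5 and 30.8 CPM in R42A and 28.9, 24.2, 26.1 and 21.96 CPM in MD lines (log2 -0.45, SE 0.09). MD lines were below R42A lines for both genes.

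Of the 11 other response genes, 5 fell. Ankrd37, an ankyrin-repeat gene strongly induced by HIF, was at 7.66, 7.28, 6.79 and 8.21 CPM in R42A and 3.12, 2.73, 3.18 and 3.39 CPM in MD lines, 2.42-fold lower without overlap (log2 -1.28, SE 0.11, adjusted p = 8.43e-05). Ndrg1, a stress and differentiation gene, was at 19.8, 31.8, 21.7 and 29.1 CPM in R42A and between 13.3 and 14.3 CPM in MD lines (log2 -0.92, SE 0.15). Vegfa, the vascular growth factor, fell by 0.40 (SE 0.10) and Bnip3l, a mitophagy receptor, by 0.31 (SE 0.08) on the log2 scale, both with overlapping groups. Bnip3, the related receptor, was at 109, 143, 79.7 and 80.7 CPM in R42A and 88.6, 73.7, 77.8 and 71.05 CPM in MD lines (log2 -0.37, SE 0.12, adjusted p = 0.0426). Its difference came mostly from the first series (-0.59, SE 0.17, against -0.10, SE 0.08, in the second), and its call was kept in 4 of 18 alternatives. Ddit4, P4ha1, P4ha2, Kdm3a, Ak4 and Mxi1 lay between -0.26 and 0.06 and did not pass.

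**Figure D2:**
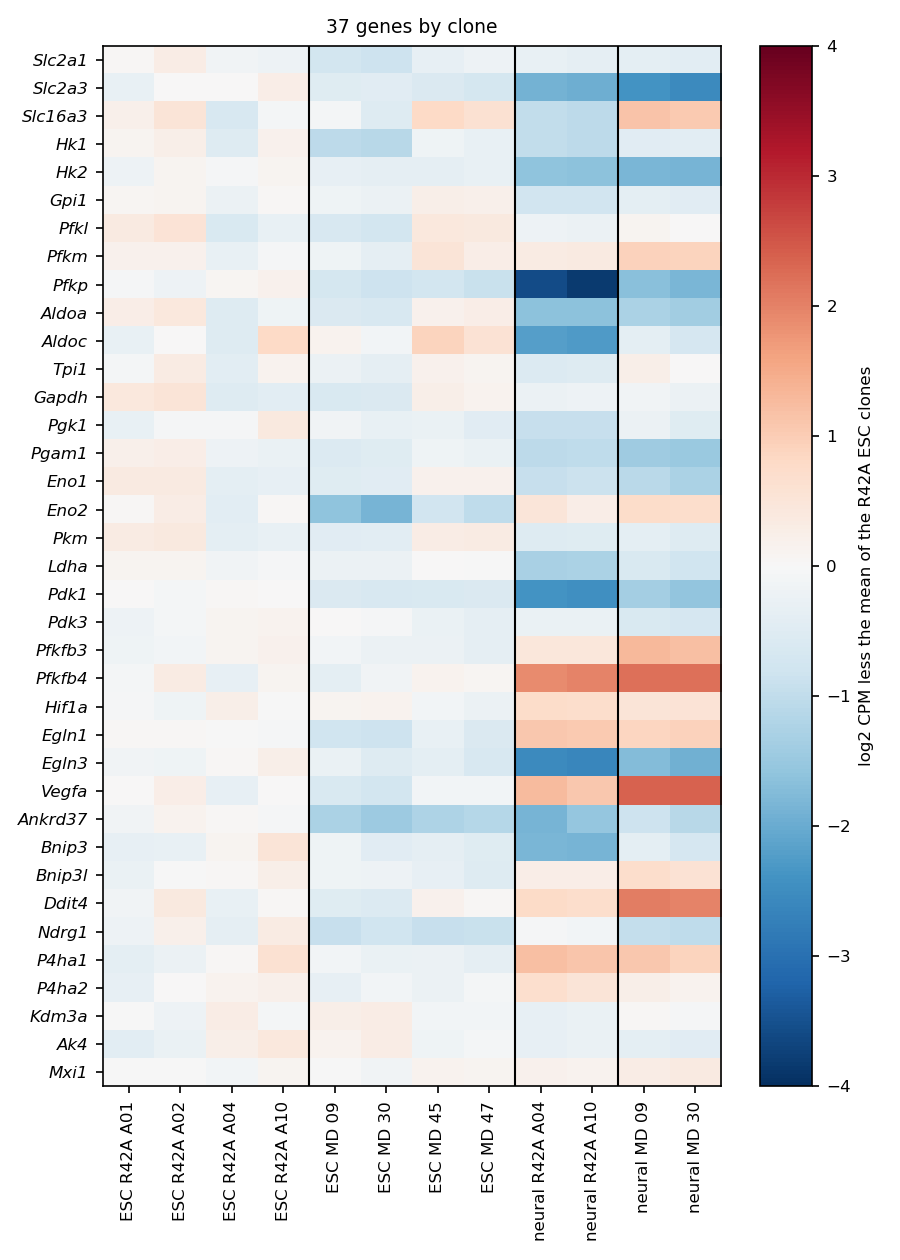
Log2 CPM of each gene (rows, ordered by role) in each of the 12 line sums (columns), less the mean of the 4 R42A ESC lines. Blue is lower and red higher than that mean. Pfkp, Pdk1 and Egln3 are lowest in R42A neural cells, and Vegfa, Ddit4 and Pfkfb4 are highest in MD neural cells.

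In neural cells the same comparison gave calls in both directions, mostly upward: 16 of the 37 rose (43.2%), 8 fell (21.6%) and 13 did not pass. Over 23844 genes tested, 17.4% rose, 16.3% fell and 33.7% were called in either direction. The members' median was 0.31, against -0.0020 over all genes tested. MD and R42A line sums did not overlap for 35 members, 23 with MD above and 12 with MD below. That separation is common with 2 lines a group: it held for 76.0% of genes tested, 37.9% with MD above and 38.1% with MD below. Leaving out 1 MD line lowered the counts, to 8 that rose and 1 that fell without line 09 and to 9 and 1 without line 30, with the lone MD sum assumed to vary like the others.

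Slc16a3, the lactate exporter, had the highest log2 change of all members: 30.6 and 28.96 CPM in R42A against 134 and 124 CPM in MD neural cells, 4.31-fold (2.11, SE 0.21, adjusted p = 0.000534). The glucose carriers were not higher. Slc2a3 fell again (383 and 365 against 273 and 241 CPM, log2 -0.55, SE 0.10) and Slc2a1 did not pass (376 and 362 against 355 and 345 CPM, -0.08, SE 0.05).

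Of the 9 upper glycolysis enzymes, 5 rose. Pfkp was at 40.3 and 33.7 CPM in R42A and 149.7 and 135 CPM in MD neural cells, 3.83-fold higher (1.94, SE 0.10, adjusted p = 9.21e-05). Aldoc, the brain aldolase, was at 3.89 and 3.71 CPM against 13.6 and 11.4 CPM (1.71, SE 0.38, adjusted p = 0.0134). For both genes each MD value stood above each R42A value. Tpi1, the triose phosphate isomerase, rose by 0.64 (SE 0.17), Pfkm, the muscle phosphofructokinase, by 0.56 (SE 0.09), and Gpi1, the glucose phosphate isomerase, by 0.33 (SE 0.10). Hk2 fell by 0.22 (SE 0.07), while Hk1 (0.57, SE 0.20, adjusted p = 0.0616), Pfkl (0.29, SE 0.11, adjusted p = 0.0740) and Aldoa (0.31, SE 0.11, adjusted p = 0.0745) did not pass.

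Of the 7 lower enzymes, 2 rose and 2 fell. Ldha, the lactate dehydrogenase subunit that favours lactate formation, was at 476 and 487 CPM in R42A and 777 and 675 CPM in MD neural cells (0.59, SE 0.07, adjusted p = 0.00129). Pgk1, the first ATP-yielding enzyme, was at 454 and 459 against 737 and 614 CPM (0.56, SE 0.15, adjusted p = 0.0256). The 2 that fell act after Pgk1 in the pathway. Pgam1 fell by 0.43 (SE 0.05) and Eno1 by 0.30 (SE 0.07), and Gapdh (0.04, SE 0.06), Pkm (0.04, SE 0.06) and Eno2 (0.34, SE 0.17) did not pass.

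Pdk1 was at 46.8 and 44.9 CPM in R42A and 95.8 and 82.6 CPM in MD neural cells (0.96, SE 0.08, adjusted p = 0.000255), whereas Pdk3 fell (38.96 and 38.8 against 30.3 and 29.3 CPM, -0.39, SE 0.05). Pfkfb3 was at 49.2 and 48.6 CPM in R42A against 87.7 and 83.2 CPM in MD (0.80, SE 0.06, adjusted p = 0.000249). Pfkfb4 did not pass (0.27, SE 0.16). Hif1a RNA was at 232 and 228 CPM against 199.6 and 206 CPM and did not pass (-0.18, SE 0.07, adjusted p = 0.0934). Egln3 rose from 5.94 and 5.69 to 10.3 and 9.16 CPM (0.74, SE 0.12), and Egln1 fell by 0.18 (SE 0.05, adjusted p = 0.0293), a call kept in 5 of 12 alternatives.

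Of the 11 other response genes, 5 rose and 2 fell. Bnip3 was at 28.03 and 27.5 CPM in R42A and 75.8 and 62.8 CPM in MD neural cells (1.32, SE 0.16, adjusted p = 0.00113). Ddit4 (REDD1, an inhibitor of mTOR signalling) was at 112 and 106 CPM against 271 and 259 CPM (1.28, SE 0.11, adjusted p = 0.000353). Vegfa was at 114 and 101 CPM against 247 and 248 CPM (1.20, SE 0.12, adjusted p = 0.000534). For each of these genes both MD values lay above both R42A values. Ankrd37 (2.08 and 2.53 against 4.21 and 3.47 CPM) rose by 0.73 (SE 0.16), and Bnip3l (152 and 152 against 205 and 189 CPM) by 0.37 (SE 0.08). Ndrg1 fell from 24.1 and 23.04 to 12.9 and 12.4 CPM (-0.90, SE 0.20), and P4ha2, a collagen prolyl hydroxylase, fell by 0.40 (SE 0.09). P4ha1, Kdm3a, Ak4 and Mxi1 lay between -0.18 and 0.29 and did not pass.

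Whether the MD effect differed between stages was tested directly, as the effect in neural cells less the effect in ESC of the same 4 lines. It was above 0 and passed for 20 of the 37 members (54.1%) and below 0 and passed for 1, Pdk3 (-0.27, SE 0.08, adjusted p = 0.0453). Over all genes 11.9% were higher, 11.1% lower and 22.9% called either way, and the median was 0.58 for the members and 0.02 for all genes. The highest values were those of Pfkp (2.80, SE 0.15), Ankrd37 (2.06, SE 0.22), Slc16a3 (2.04, SE 0.29) and Aldoc (1.95, SE 0.52). Without line 09 or without line 30, 2 members passed (Pfkp and Pdk1), where 77 and 114 genes passed in all.

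A group of 8 members fell in ESC, rose in neural cells and passed the test of the difference: Pfkp, Pdk1, Pfkfb3, Egln3, Vegfa, Ankrd37, Bnip3 and Bnip3l. That is 21.6% of the members, where 2.28% of 21470 genes tested in both stages fell in ESC and rose in neural cells (2.27% with the test of the difference passed) and 2.32% did the opposite. Since 51.4% of the members fell in ESC and 43.2% rose in neural cells, a joint share of this size is not a separate result. Passing the test of the difference adds little, as 488 of the 490 genes with both calls passed it. The ESC and the neural comparison set different libraries against each other, though 4 of the line names are common to both. The neural test took its spread from a fit that also held the ESC sums of those 4 lines. Calls in ESC and in neural cells are therefore not independent. Of the 8, Pfkp, Pdk1 and Ankrd37 kept the ESC call in 18 of 18 alternatives, Egln3 in 17, Vegfa in 15, Bnip3l in 13, Pfkfb3 in 11 and Bnip3 in 4. The neural call was kept in 12 of 12 by Pfkp, Pdk1, Pfkfb3, Vegfa and Bnip3, in 11 by Egln3 and in 10 by Ankrd37 and Bnip3l. Their roles are commitment to glycolysis (Pfkp, Pfkfb3), blocking pyruvate oxidation (Pdk1), mitophagy (Bnip3, Bnip3l), vessel recruitment (Vegfa) and HIF feedback (Egln3). Another 7 members fell in both stages: Slc2a3, Hk2, Pgam1, Eno1, Pdk3, Egln1 and Ndrg1. Ndrg1 had close values in both (-0.92 and -0.90), and its difference was not called (-0.02, SE 0.28). A further 4 fell in ESC alone (Slc2a1, Hk1, Gapdh, Eno2), 8 rose in neural cells alone (Aldoc, Ddit4, Gpi1, Ldha, Pfkm, Pgk1, Slc16a3, Tpi1), P4ha2 fell in neural cells alone and 9 passed in neither.

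**Figure D3:**
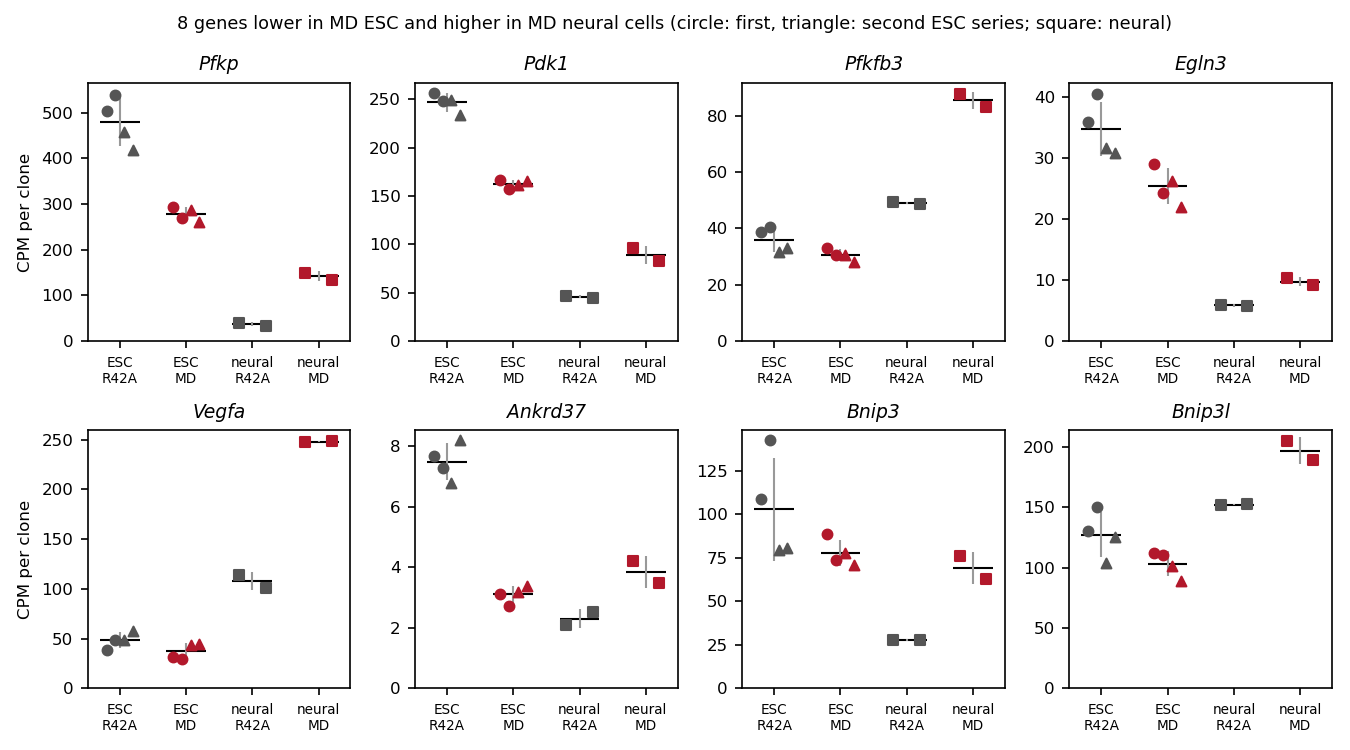
CPM (vertical axes, from 0) of the 8 genes lower in MD ESC and higher in MD neural cells, 1 point a line sum, R42A grey and MD red. Horizontal bars are group means and vertical bars 1 SD. In every panel the red neural squares lie above the grey neural squares, and the mean of the red ESC points lies below that of the grey ones.

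Comparison of neural cells with ESC showed shifts of the same genes, which were larger than the MD differences for some members, such as Pfkp, but not for all. Ndrg1 was called between stages in neither genotype. In R42A lines 22 members were lower in neural cells and 11 higher, where 78.3% of genes tested were called (40.4% lower, 37.9% higher). In MD lines 13 were lower and 17 higher, where 81.3% were called (41.0% lower, 40.3% higher). The R42A decline was steepest for Pfkp (-3.87, SE 0.11, 14.6-fold), Egln3 (-2.77, SE 0.12), Aldoc (-2.58, SE 0.39), Pdk1 (-2.51, SE 0.08) and Bnip3 (-2.23, SE 0.16). The same genes in MD lines changed by -1.07 (SE 0.10, Pfkp), -1.53 (SE 0.12, Egln3), -0.63 (SE 0.36, Aldoc, not passed), -0.94 (SE 0.08, Pdk1) and -0.31 (SE 0.16, Bnip3, not passed). Hk1, Slc16a3 and Slc2a1 fell in R42A and rose in MD lines, Slc16a3 by -0.74 (SE 0.20) and 1.31 (SE 0.20). Slc2a3 (-2.13 and -2.07) and Hk2 (-1.72 and -1.57) fell in both genotypes, and the difference between genotypes did not pass (0.05, SE 0.14, for Slc2a3 and 0.15, SE 0.09, for Hk2).

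Genes higher in neural cells of both genotypes were 11: Ddit4, Egln1, Eno2, Gapdh, Hif1a, P4ha1, P4ha2, Pfkfb3, Pfkfb4, Pfkm and Vegfa. Vegfa gained 1.25 (SE 0.12) in R42A and 2.96 (SE 0.13) in MD lines, and Pfkfb4, a paralogue of Pfkfb3, 1.99 (SE 0.16) and 2.39 (SE 0.17). Genes lower in both were 13 and included Ldha (-1.25 in R42A and -0.55 in MD), Aldoa (-1.37 and -0.79), Eno1 (-0.58 and -0.78) and Pgam1 (-0.85 and -1.01). By mean level, 9 members ran from R42A ESC through MD ESC and MD neural cells down to R42A neural cells (Aldoa, Bnip3, Egln3, Gapdh, Ldha, Pdk1, Pfkp, Pgk1 and Pkm), although for Gapdh and Pkm the neural means, and for Aldoa, Bnip3, Gapdh, Ldha, Pgk1 and Pkm the ESC means, differed by less than the larger SD. In 6 the order was MD neural, R42A neural, R42A ESC and MD ESC (Bnip3l, Ddit4, Eno2, Pfkfb3, Pfkfb4 and Vegfa). Ddit4 and Pfkfb4 were not called in ESC and their ESC groups overlapped, so the order of their ESC means is uncertain. Since neural and ESC libraries were made in different series, these shifts and a series effect cannot be told apart.

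**Figure D4:**
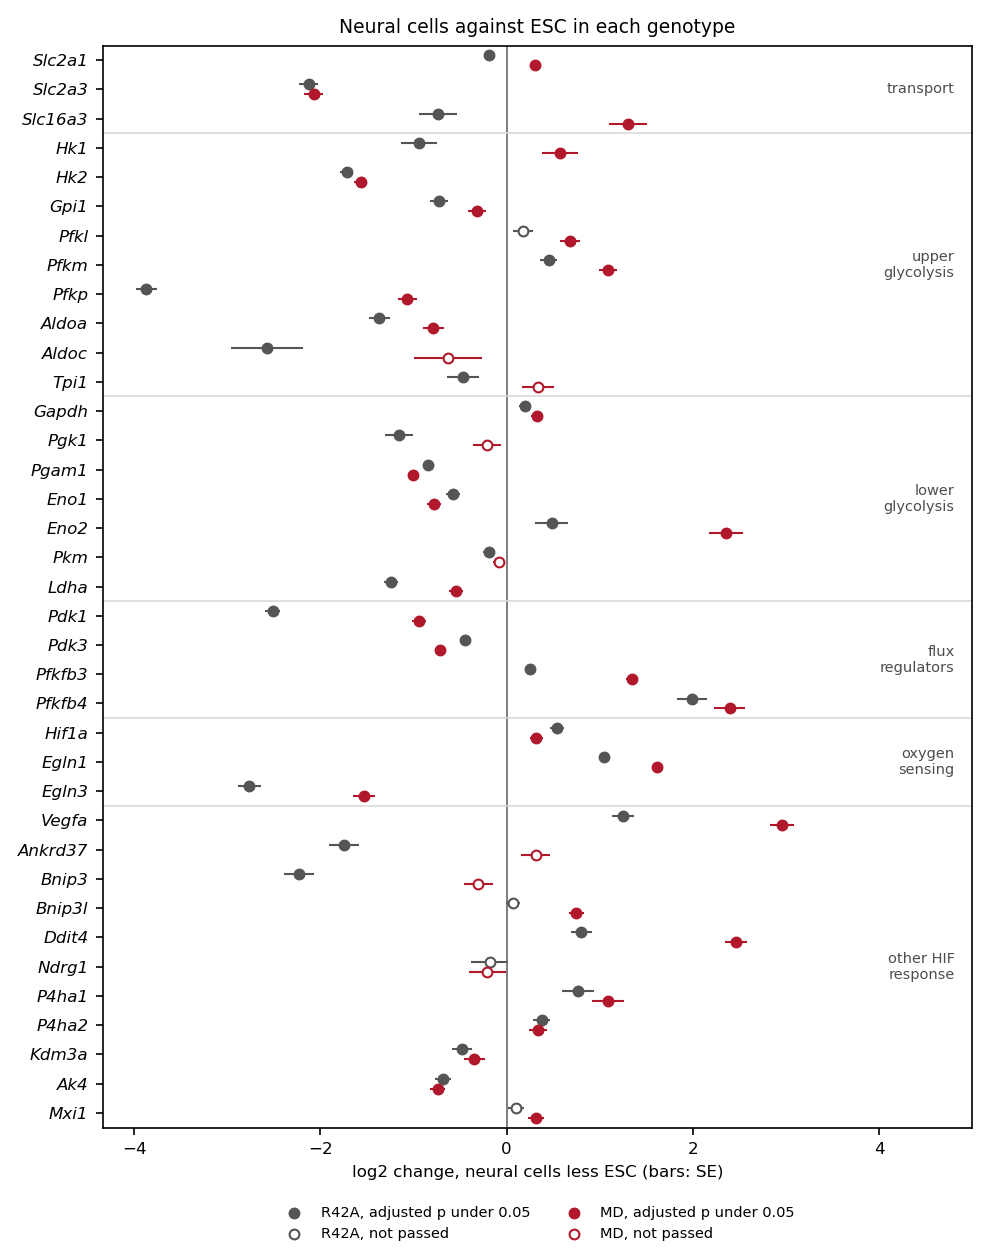
Log2 change of neural cells against ESC (horizontal axis) for each gene in R42A (grey) and MD lines (red), with standard errors, filled where the adjusted p is under 0.05. The red points lie to the right of the grey ones for the 20 genes whose difference passed as higher, Pfkp showing the widest gap (-3.87 against -1.07).

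Levels were taken per kilobase of annotated exon to compare genes with each other. That length merges all annotated exons of a gene and can exceed the length of the transcripts expressed. It was 13.4 kb for Pfkp, 6.68 kb for Pfkl and 3.34 kb for Pfkm. The ranking of genes and the sizes of the shares below depend on these lengths. In R42A ESC the highest were Gapdh (713 CPM per kb), Pkm (475) and Aldoa (434), and in R42A neural cells Gapdh (577), Pkm (327) and Pgk1 (204). Shares within isozyme families, given as a description without a test, differed by stage and genotype. Pfkp made up 48.4% ± 9.9 (SD, n = 4) of phosphofructokinase level per kb in R42A ESC and 36.8% ± 9.1 (SD, n = 4) in MD ESC. The groups overlapped over all lines but not within a series (58.4% and 55.1% against 44.6% and 44.6% in the first). In neural cells Pfkp was at 6.85% ± 0.78 (SD, n = 2) in R42A and 17.5% ± 0.69 (SD, n = 2) in MD, and Pfkl, the liver enzyme, was the main one in both (54.3% and 44.3%). Pfkm was at 16.5% in R42A ESC, 22.5% in MD ESC, 38.8% in R42A and 38.2% in MD neural cells.

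Ldha made up 81.5% ± 3.8 (SD, n = 4) of the Ldha and Ldhb level in R42A ESC and 88.7% ± 2.0 (SD, n = 4) in MD ESC, without overlap, and 63.9% and 79.1% in R42A and MD neural cells. Ldhb, the subunit that favours pyruvate formation, fell in MD ESC (128 to 67.3 CPM, log2 -0.97, SE 0.21, adjusted p = 0.00644). Pdk1 made up 63.5% of the Pdk1 and Pdk3 level in R42A ESC and 56.2% in MD ESC, and 28.0% and 49.6% in R42A and MD neural cells. For Bnip3 against Bnip3l the ESC shares overlapped (57.4% and 56.3%), and the neural shares were 23.7% in R42A and 37.4% in MD. Hk2 held most of the hexokinase level in every group, from 91.8% in MD ESC down to 77.6% in MD neural cells. Slc2a1 made up 40.2% of the carrier pair in R42A ESC and 67.1% in R42A neural cells.

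**Figure D5:**
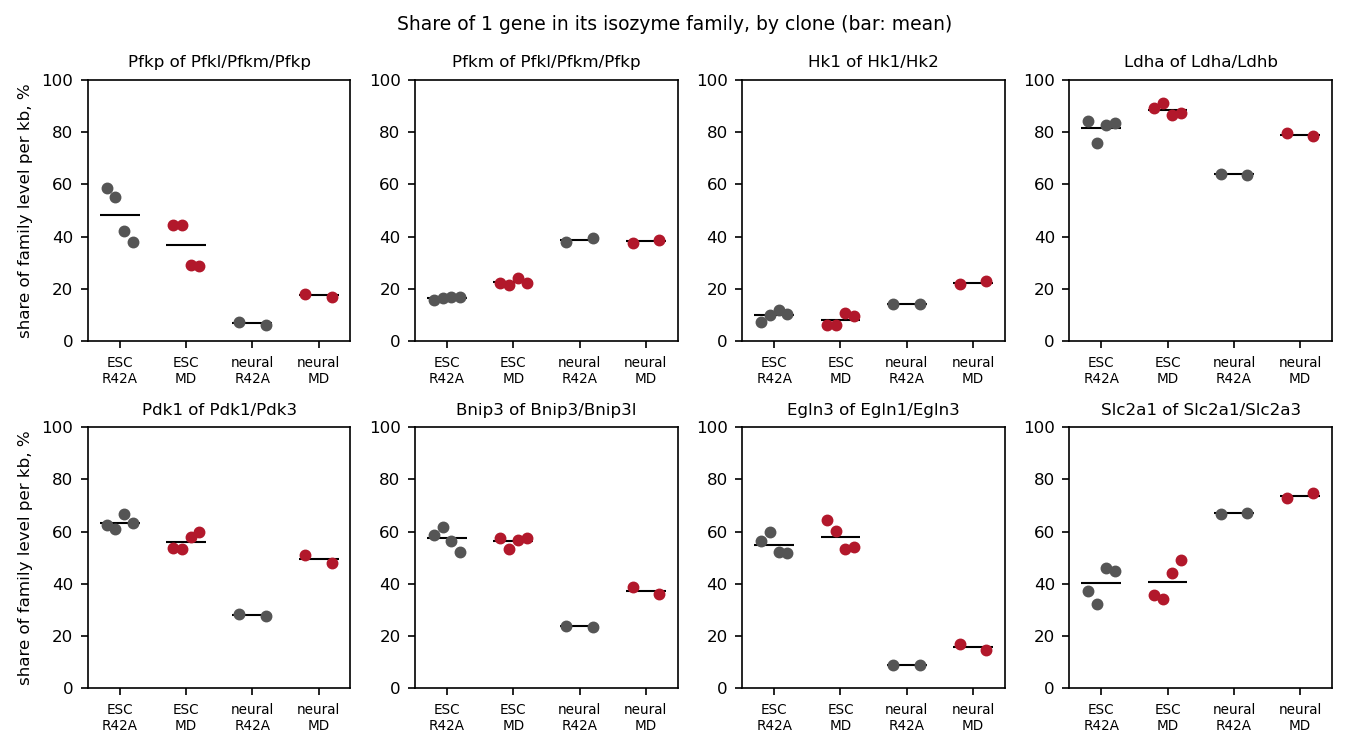
Share of 1 gene in the summed level per kb of its family (vertical axis, percent), 1 point a line sum, R42A grey and MD red, bars the group means. Pfkp stands at 48.4% in R42A ESC, at 6.85% in R42A neural cells and at 17.5% in MD neural cells.

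Other genes of these pathways, taken from lists, were counted in the same fits. Those named come from the up to 4 genes of a list with the widest called changes. Not all of these are named, and a named gene need not be the widest. Over all genes tested, 17.1% rose and 19.4% fell in ESC, and 17.4% rose and 16.3% fell in neural cells. Counts near these shares, for the lists here and in the following paragraphs, are not a result about the list. Of 15 further glycolysis and transport genes tested in neural cells, 1 rose and 2 fell, among them Slc16a1, the MCT1 lactate carrier (166 against 95.8 CPM, -0.80, SE 0.06). Slc16a1 and Slc16a3 thus had called changes in opposite directions. In ESC 3 of 14 rose and 3 fell, including Eno3, the muscle enolase (0.98, SE 0.06), which also rose in neural cells (0.48, SE 0.08). Of 12 genes of pyruvate entry into mitochondria, 5 fell in ESC, such as the pyruvate carrier Mpc1 (-0.91, SE 0.08) and pyruvate carboxylase Pcx (-0.82, SE 0.06). In neural cells 2 of the 12 rose and 3 fell, including Pdp2, a phosphatase that reverses the action of Pdk1 (-0.77, SE 0.07).

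Of 7 pentose phosphate genes, 4 fell in neural cells: Pgls (-0.60, SE 0.12), Tkt (-0.46, SE 0.06), Pgd (-0.45, SE 0.04) and Taldo1 (-0.34, SE 0.05). In ESC 1 rose (Rpe) and 2 fell (Pgls, Taldo1). Of 11 glycogen genes, 4 rose in neural cells, with Ppp1r3c, which targets a phosphatase to glycogen and is known as a HIF target, at 2.995 CPM in R42A and 13.9 CPM in MD (2.21, SE 0.16). In ESC Ppp1r3c fell (-0.70, SE 0.24, adjusted p = 0.0444), and over the list 1 rose and 2 fell. Of 14 regulators of HIF, 8 fell and 1 rose in ESC and 4 fell and 2 rose in neural cells. Epas1, which encodes another HIF alpha subunit, fell in ESC (53.8 to 33.8 CPM, -0.65, SE 0.10) and in neural cells (112 to 48.4 CPM, -1.21, SE 0.13). Vhl, whose product marks HIF alpha for destruction, fell in neural cells (68.1 to 51.5 CPM, -0.41, SE 0.05).

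Of 31 further HIF targets, 14 rose and 3 fell in neural cells, with a median of 0.38, and 7 rose and 11 fell in ESC, with a median of -0.09. Stc2, a secreted glycoprotein, rose in both stages, from 14.5 to 29.9 CPM in ESC (1.05, SE 0.07) and from 42.7 to 153 CPM in neural cells (1.84, SE 0.11). Igfbp3, a carrier of insulin-like growth factors, rose in ESC (1.21, SE 0.09), against the direction of the members there. Adm, the adrenomedullin gene, rose in neural cells from 0.457 to 1.82 CPM (1.99, SE 0.24), and Anxa2 fell (-1.85, SE 0.29). Of 11 MYC network factors, which bind the E-box, 4 rose and 2 fell in ESC, including Mycn (152 to 227 CPM, 0.61, SE 0.09), and 4 rose and 3 fell in neural cells.

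Other features moved with the genotype. Of 12 genes of the amino acid and unfolded protein stress response, 9 rose and 1 fell in neural cells, and their summed level was between 2234 and 2319 CPM in R42A and between 2954 and 2982 CPM in MD (in ESC 2 rose and 3 fell). Slc7a11, the cystine carrier, was at 31.7 and 146 CPM, Trib3 at 23.5 and 93.8, Chac1 at 41.3 and 118, and Ddit3 at 9.68 and 26.3 CPM in R42A and MD neural cells. Of 10 neuron markers, 10 rose in neural cells, and their sum was between 789 and 812 CPM in R42A and between 2118 and 2142 CPM in MD. The pluripotency sum was between 259 and 268 CPM in R42A and between 337 and 345 CPM in MD neural cells (5 of 10 rose, 2 fell), and between 6313 and 7362 CPM in R42A and between 5136 and 6014 CPM in MD ESC (8 of 10 fell). The endoderm sum in neural cells was between 797 and 885 CPM in R42A and between 444 and 472 CPM in MD (1 of 9 rose, 3 fell). The part of these shifts in the results above was not tested.

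The sum of 8 mesenchyme genes was between 10.3 and 32.7 CPM in R42A ESC and between 61.8 and 110.5 CPM in MD ESC (6 rose, 1 fell), and between 323 and 326 CPM and between 170.2 and 178 CPM in R42A and MD neural cells (4 rose and 3 fell, with a median log2 change of 0.58, so that most called genes went against the sum). The trophectoderm sum of 7 genes was between 14.5 and 37.2 CPM in R42A ESC and between 54.1 and 130.1 CPM in MD ESC (4 rose), and between 119 and 138 CPM and between 71.2 and 75.4 CPM in R42A and MD neural cells (2 fell). Glial genes summed to between 104 and 122 CPM in neural cells, with S100b at 0 in both neural groups, mesoderm genes to at most 32.5 CPM in any group, and blood and endothelial genes to at most 169 CPM, with Hbb-bs at 0 in R42A ESC and R42A neural cells. The part of these lists was not tested either.

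Chromosome 11, which carries Aldoc, P4ha2, Slc16a3 and Smarce1, and also Eno3, Igfbp3 and Stc2 named above, had a median log2 change of 0.45 over 1608 genes in ESC and 0.48 over 1691 genes in neural cells. Chromosome 8, which carries Ankrd37 and Egln1, and also Pdp2 and Pgls named above, had medians of -0.45 and -0.28. Chromosome 6, which carries 6 members (Slc2a3, Hk2, Tpi1, Gapdh, Eno2 and Kdm3a), had medians of -0.14 and -0.04. With each chromosome scaled separately, the neural rise of Slc16a3 was 1.66 (adjusted p = 0.0008) and that of Aldoc 1.26 (adjusted p = 0.0292), and the ESC fall of Ankrd37 was 0.87 on the log2 scale (adjusted p = 0.00147). The uncalled ESC values of Slc16a3 and Aldoc turned to below 0 (-0.25 and -0.13). In ESC 3 members lost their call in this scaling, Egln1 among them, and 2 gained one. P4ha2 was among the latter and passed as lower (-0.64, adjusted p = 0.00188). Egln1 also lost its neural call in this scaling (0.13, adjusted p = 0.2997). Other genes with near-identical stretches, called copies here, could split reads with a member in the counting. They held counts equal to 61.2% of those of Eno1 (4 copies, mostly Gm4735 and Eno1b) and 44.2% of those of Gapdh (103 copies). The value was 13.4% for Pgk1, 11.2% for Pgam1, 7.98% for Bnip3l, 4.94% for Pkm and 4.39% for Bnip3, so these levels are uncertain. For Pkm most of it was Gm49759 (115248 counts, against 76484 for Gm6560). Gm49759 overlaps Pkm itself on the same strand, by 767 exon bases (15.3% of those of Pkm). Pfkp shares 748 exon bases (5.6% of its own) with Pitrm1 on the opposite strand, whose count equals 59.5% of that of Pfkp, and Ankrd37 shares 57 with Ufsp2 and 349 with Lrp2bp. Whether counting used the strand is not given in the sources used here, so reads in those stretches cannot be assigned for certain. The smaller Aldoa entry had between 0.306 and 2.96 CPM.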

How the data were processed

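The authors deposited 1 table of RSEM expected counts per gene for each of 32 libraries. Per the submitters' processing notes the tools named include RSEM 1.3.0, STAR 2.7.1a, Trim Galore 0.60 and DESeq2 (no version), and the build is mm10; the annotation release and strand setting are not given in the sources used here. Between 1.46% and 1.70% of genes had values that were not whole (tolerance 1e-06). Of 55665 entries, 92 spike-in entries with a total of 0 were dropped. Identifiers of 55480 genes matched GENCODE M21, whose merged exon lengths gave levels per kb.

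Expected counts were rounded and summed per line. Tests used edgeR 4.0.16 in R 4.3.3 (TMM, filterByExpr with a minimum count of 10, robust quasi-likelihood, Benjamini-Hochberg, threshold 0.05). The ESC fit had 8 line sums with library series as a term, and 1 fit of 4 groups (8 line sums, lines A04, A10, 09 and 30) gave the neural, stage and difference contrasts. Levels are CPM with a common TMM scaling over 12 line sums. No 2 libraries held identical values. The script was tested on simulated data. Copies were gene pairs of at least 95% identity over 300 bases in BLAST 2.17.0. Alternatives were DESeq2 size factors, each chromosome scaled separately, no low count filter, DESeq2 1.42.0, limma voom (limma 3.58.1), each series alone, no series term, neural sums alone, single libraries with and without a replicate block, and leaving out each line.

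The 37 genes and the lists were chosen with earlier results of these data known. Each of the 37 is accounted for. Of each other list, genes could be named from up to 4 in a comparison. These were the ones with the widest log2 change among those called at a mean of at least 1 CPM, and not all were named. A gene that this rule names is not reported here. Depth ranges from 38699952 to 96424443 counts in ESC and from 44426448 to 62803925 in neural libraries.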

Additional observations from a re-analysis of the deposited data

Results flagged for a closer look

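In R42A ESC, line A04 stood apart from the other 3 lines for a pair of genes. Hk1 was at 43.5 CPM in A04 and between 66.3 and 72.2 CPM in the others, and Gpi1 was at 451 CPM in A04 and between 553 and 576 CPM in the others. On the log2 scale the gap to the nearest line, divided by the range, was 0.832 for Hk1 and 0.835 for Gpi1, just above Dixon's 95% critical value for 4 lines. On the CPM scale it was 0.795 and 0.818, below that value, and no other group passed it. Such a gap was looked for in 74 groups of 4 lines, and chance marks about 1 group in 20.

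For 21 genes the MD effect differed between neural cells and ESC by the test of the difference itself (edgeR's quasi-likelihood test, Benjamini-Hochberg adjusted p under 0.05). On the log2 scale the difference was 2.80 for Pfkp, 2.06 for Ankrd37, 2.04 for Slc16a3, 1.95 for Aldoc, 1.92 for Bnip3, 1.87 for Eno2, 1.71 for Vegfa, 1.66 for Ddit4, 1.57 for Pdk1 and 1.52 for Hk1. It was 1.24 for Egln3, 1.09 for Pfkfb3, 0.95 for Pgk1, 0.70 for Ldha, 0.68 for Bnip3l and 0.64 for Pfkm. Lower values were found for Aldoa (0.58), Egln1 (0.58), Pfkl (0.51) and Slc2a1 (0.49), and Pdk3 had -0.27. Without line 09 or without line 30 only Pfkp and Pdk1 passed. The summed neuron markers differed between the genotypes in neural cells (789 to 812 CPM in R42A, 2118 to 2142 CPM in MD), and their part in these values was not tested.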

How the results depend on the processing

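In ESC, 7862 genes were called and 19 members were lower. Without the series term these were 3084 and 9, in the first series alone 1769 and 7, and in the second alone 4878 and 12. Leaving out 1 line gave 5745 to 9329 genes and 13 to 19 lower members. Members higher were 0, but 1 in the second series and 0 to 3 without 1 line. In neural cells 8030 genes, 16 higher and 8 lower members were called. Leaving out 1 line gave 1538 to 9967, 8 to 22 and 1 to 9, and the neural sums alone gave 13643 genes, 23 higher and 11 lower. The difference between stages (5472 genes, 20 members higher, 1 lower) ranged over 77 to 8759 genes, 2 to 27 higher and 0 to 3 lower without 1 line. Without line 09 or 30, 1 MD sum was left per stage, assumed to vary like the other groups. The 1 lower member (Pdk3) went to 0 under chromosome scaling, without a low count filter, in limma voom and with single libraries with or without the replicate block, and DESeq2 gave 2. With the replicate block, members higher in R42A neural cells against ESC went from 11 to 6.

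Calls kept under every alternative were 5 of 19 in ESC (Slc2a3, Pfkp, Eno2, Pdk1, Ankrd37), 9 of 24 in neural cells (Pfkp, Pgam1, Ldha, Pdk1, Pfkfb3, Vegfa, Bnip3, Ddit4, Slc16a3), 24 of 33 and 22 of 30 between stages in R42A and MD, and 2 of 21 for the difference (Pfkp, Pdk1). Directions turned for Egln1 in neural cells under chromosome scaling (0.13, adjusted p = 0.2997), for Ndrg1 between stages in R42A without A10 (0.24, adjusted p = 0.0362 in edgeR's quasi-likelihood test; range without 1 line -0.53 to 0.24) and for the difference of Ndrg1 without A04 (0.31, adjusted p = 0.0459; range -0.45 to 0.31); the cause was not tested. Where neither value passed, the sign changed in 30 values of 12 members in ESC, 2 of 2 in neural cells, 5 of 3 and 1 of 1 between stages, and 13 of 6 for the difference.

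Whether replicate numbers pair MD with R42A libraries was not settled, because correlations between same-numbered libraries of the genotypes were mixed. For replicates 1, 2 and 3, ESC gave 0.02, -0.27 and 0.53 (first series) and 0.03, 0.44 and 0.38 (second series). Neural cells gave 0.05 for replicates 1 and 2, which counts as 1 value. The correlations are of deviations from each line's mean, and with 2 libraries a line those of replicates 1 and 2 are opposite by construction. With single libraries and the replicate block 18 members were lower in ESC, as without it (18), and 17 were higher and 6 lower in neural cells, against 18 and 7 without it. Single libraries of 1 line are not independent.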
